A study of Homo sapiens with 12 samples.

Results

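Claudins and the proteins that work with them at the tight junction were examined in Hke3 and Hkh-2 and in HCT116, the human colorectal cancer line they derive from. HCT116 carries an oncogenic RAS allele, which was the target of the homologous recombination that gave Hke3 and Hkh-2. The genes were the claudins CLDN1, CLDN2, CLDN3, CLDN4, CLDN7 and CLDN12, the occludin gene OCLN, the zonula occludens gene TJP1 and the junctional adhesion gene F11R, and every probe set named for 1 of them alone was taken. Of these 9 genes, 8 had a probe set of their own, 15 in all of the 54675 on the array. F11R was named by no probe set in the annotation used here and was not analysed here, and 1 further probe set that names CLDN12 together with another gene was not used.

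RNA was measured on 12 Affymetrix Human Genome U133 Plus 2.0 arrays, 3 for each of 4 groups: Hke3, Hkh-2, HCT116 control cells treated for 3 days with 25 ng/ml doxycycline, and HCT116 control cells on day 3 with vehicle. Cells of all groups grew in DMEM with 10% serum. Hke3 and Hkh-2 are each a single line and were cultured in basal condition, so the line, the culture and the recombined allele cannot be told apart in a difference from the vehicle-treated cells. What the recombination left differs between the sources, which describe the mutant allele as deleted or as replaced by the wild-type allele. The vector that the HCT116 control cells carry, and whether they are the parental cells, were not given in the sources used here. Knockdown arrays were not analysed here. No source says that replicate arrays came from separate cultures, so the p-values reflect the spread between arrays of a group, which may be technical only.

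Tight junctions seal the space between neighbouring epithelial cells near their apical border. Claudins are tetraspan membrane proteins whose strands form the seal, and their type sets which ions pass, some claudins closing the paracellular route and others, such as claudin-2, opening a cation channel. Occludin is another tetraspan protein of the strands, and the scaffold ZO-1 ties claudins and occludin to the actin cytoskeleton. Intestinal epithelium is known for expressing CLDN3, CLDN4 and CLDN7 along its surface.

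CLDN3 and CLDN4 are neighbours on chromosome 7, with 0 protein-coding genes annotated between them. The 250 bases before the RefSeq start of 5 of the genes (GRCh38.p14, each given 5′ to 3′ on its own strand) are shown as examples of 2 patterns. CLDN4, CLDN3 and OCLN were higher in both recombined lines, whereas CLDN1 and CLDN12 passed the test against vehicle in Hke3 and not in Hkh-2. TJP1, also higher in both lines, and CLDN7, which passed in Hkh-2 and not in Hke3, are not shown. Capitals mark the GC box GGGCGG, the E-box CAGGTG and the ETS-type core AGGAAG on either strand.
CLDN4, chr7:73830746-73830995, plus strand: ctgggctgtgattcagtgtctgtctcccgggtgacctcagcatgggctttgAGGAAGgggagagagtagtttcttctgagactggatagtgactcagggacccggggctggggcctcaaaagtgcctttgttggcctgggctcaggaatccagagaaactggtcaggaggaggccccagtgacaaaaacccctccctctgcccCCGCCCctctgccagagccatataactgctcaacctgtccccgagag
CLDN3, chr7:73770271-73770520, minus strand: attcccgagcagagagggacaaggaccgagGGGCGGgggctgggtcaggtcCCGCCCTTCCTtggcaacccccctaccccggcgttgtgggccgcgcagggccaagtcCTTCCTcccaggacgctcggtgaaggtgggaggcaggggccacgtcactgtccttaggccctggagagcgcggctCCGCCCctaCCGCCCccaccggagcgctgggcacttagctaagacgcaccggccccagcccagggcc
OCLN, chr5:69492297-69492546, plus strand, the first of 2 promoters listed: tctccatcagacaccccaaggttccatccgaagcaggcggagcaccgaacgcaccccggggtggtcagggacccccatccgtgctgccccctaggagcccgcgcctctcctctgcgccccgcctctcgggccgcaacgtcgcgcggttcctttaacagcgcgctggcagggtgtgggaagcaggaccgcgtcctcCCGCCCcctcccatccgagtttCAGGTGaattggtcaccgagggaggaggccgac
CLDN1, chr3:190322447-190322696, minus strand: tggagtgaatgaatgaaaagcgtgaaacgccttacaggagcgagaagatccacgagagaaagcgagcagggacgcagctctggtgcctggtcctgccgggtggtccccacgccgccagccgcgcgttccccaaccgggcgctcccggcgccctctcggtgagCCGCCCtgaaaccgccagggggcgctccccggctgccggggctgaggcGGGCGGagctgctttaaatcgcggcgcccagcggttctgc
CLDN12, chr7:90403211-90403460, plus strand: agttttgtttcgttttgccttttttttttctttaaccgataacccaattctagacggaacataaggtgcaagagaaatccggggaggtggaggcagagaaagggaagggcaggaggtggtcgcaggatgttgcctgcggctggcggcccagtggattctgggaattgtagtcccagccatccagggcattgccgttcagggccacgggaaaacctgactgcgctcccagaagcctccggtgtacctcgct

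The GC box was found 4 times before CLDN3, 2 times before CLDN1, and 1 time each before CLDN4 and OCLN. The core AGGAAG was found 2 times before CLDN3, where 1 match overlaps a GC box by 1 base, and 1 time before CLDN4. The E-box CAGGTG was found 1 time before OCLN. The CLDN12 window held none of these letters, and the grainyhead motif AACCGGTT was in none of the 5. Of 35116 RefSeq promoters of the same length, 42.6% held the GC box, 17.5% the E-box, 28.7% AGGAAG and 0.117% AACCGGTT, and a match describes the letters only.

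The deposited values are on a log2 scale, so that a difference of 1 is a doubling. A group mean of at least 6 was taken as above background, and where 1 of 2 groups lay below 6 the difference is given as a lower bound, measured from 6. By this rule 7 of the 8 genes measured were tested, with 12 of their 15 probe sets. Differences were tested with limma across all 12852 genes kept, with 1 probe set a gene, or across 23516 probe sets kept, with p-values adjusted by the Benjamini-Hochberg method and called under 0.05. In bulk RNA, more cells with a transcript and more transcript per cell cannot be told apart.

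Array medians lay between 5.80 and 5.86, and arrays of 1 group correlated at r = 0.993 to 0.998 over probe sets. A pair of arrays, Hke3 replicate 3 and HCT116 vehicle replicate 2, lay apart from the rest of their groups and deviated alike (r = 0.683 between their deviations). The actin control probe sets, where a more negative 5′ minus 3′ difference marks a larger loss of 5′ signal, read -0.575 to -0.229 in Hke3, -0.324 to -0.232 in Hkh-2, -0.942 to -0.706 with doxycycline and -0.855 to -0.480 with vehicle. By actin, Hkh-2 lay above every HCT116 array, while the ranges of Hke3 and vehicle overlapped. The same difference for the GAPDH control probe sets overlapped between all groups. It lay between 0.002 and 0.114 on Hke3 arrays, and between -0.033 and 0.015 on Hkh-2 arrays. Doxycycline arrays gave GAPDH values between 0.011 and 0.082, and vehicle arrays between -0.030 and 0.091. The part of either measure in the differences was not tested. Of 10 epithelial and colon markers, 8 had a mean of at least 6 in some group, with EPCAM between 13.0 and 13.3 on every array, while the colon genes CDH17 (4.36 to 4.90) and LGALS4 (4.71 to 5.09) were near background throughout. The summed linear level of that list was 48098 in Hke3, 61453 in Hkh-2 and 45384 with vehicle. Of other cells, PTPRC of leukocytes, CDH5 of endothelium and LUM of fibroblasts were near background on every array. However, 2 of 4 leukocyte, 3 of 5 fibroblast and 2 of 3 endothelial markers reached 6 in some group. Group means ran from 7.68 to 7.92 for the leukocyte gene CD79A and from 8.19 to 8.43 for the fibroblast gene COL1A1. The endothelial gene VWF averaged 5.34 in Hke3, 5.32 in Hkh-2 and 6.35 with vehicle. COL3A1 of fibroblasts averaged 6.73 in Hkh-2 and 4.49 with vehicle. The part of these marker levels in the differences was not tested.

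Relative to HCT116 vehicle, 6 of the 7 genes tested were higher in Hke3 and 0 were lower, against 23.2% of all genes higher and 24.6% lower. In Hkh-2, 5 of the 7 were higher and 0 were lower, against 21.7% of all genes higher and 14.3% lower. The median log2 difference over the 7 genes was 0.76 in Hke3, against -0.04 over all genes, and 0.79 in Hkh-2, against 0.02 over all genes. The 2 comparisons share the 3 vehicle arrays. CLDN1 passed the filter through Hke3 alone, where it was high, so the counts and medians describe the genes tested and not all 9. At the level of probe sets, 11 of 12 were higher in Hke3, against 22.5% of all probe sets, and 10 of 12 in Hkh-2, against 19.6%.

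**Figure D1:**
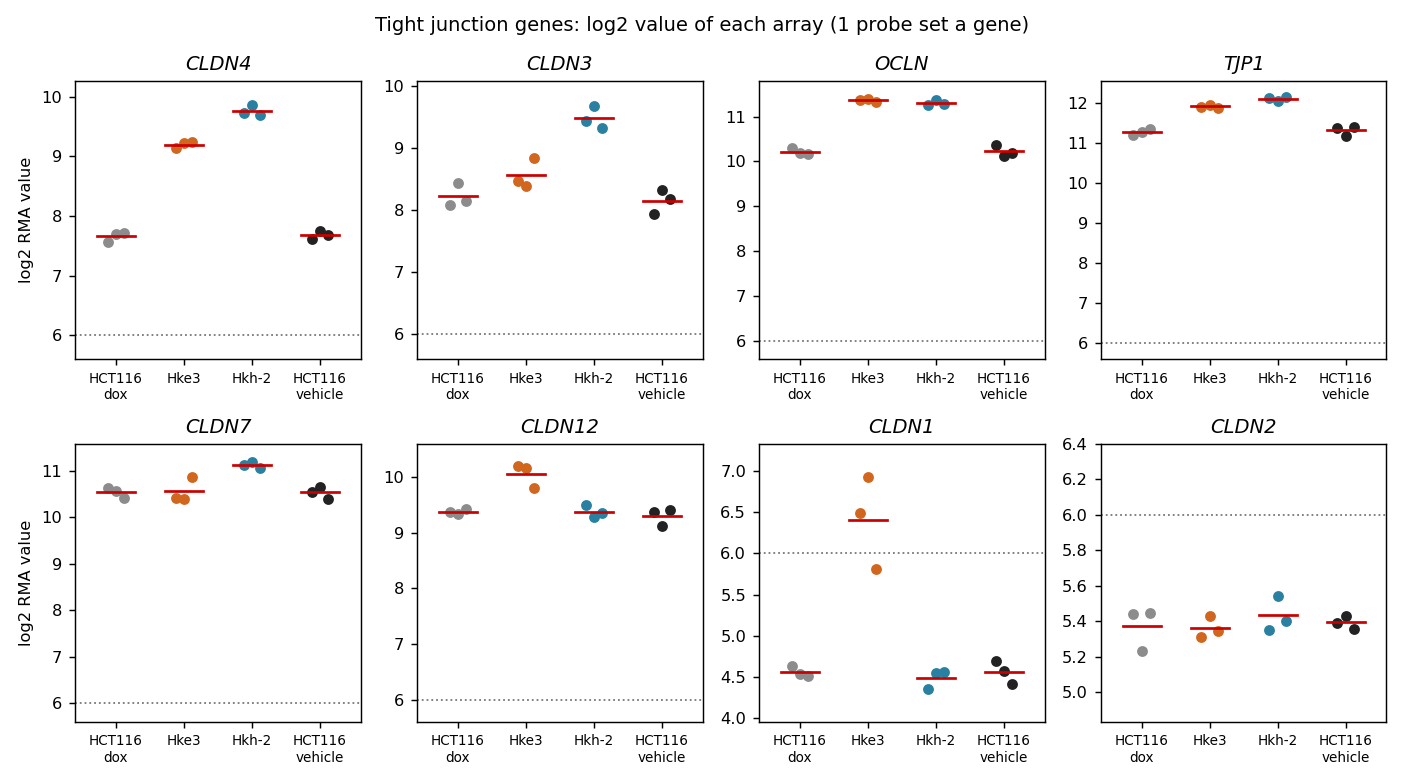
Log2 value of each array (points) and group mean (red bars) for the 8 genes measured, with the probe set of highest mean for each gene; dox stands for doxycycline, the dotted line marks 6, and the vertical scale differs between genes. CLDN4, OCLN and TJP1 are higher on all 6 arrays of Hke3 and Hkh-2 than on the 6 HCT116 arrays, and CLDN1 passes 6 in Hke3 alone.

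CLDN4 encodes claudin-4, a sealing claudin of the colon surface. Its log2 values were 9.14, 9.21 and 9.24 in Hke3, 9.72, 9.86 and 9.68 in Hkh-2, 7.56, 7.70 and 7.72 with doxycycline, and 7.61, 7.75 and 7.68 with vehicle. The levels thus fell into 3 tiers, with Hkh-2 above Hke3 and both above the overlapping HCT116 groups. CLDN4 was 1.52 ± 0.077 higher in Hke3 than with vehicle (log2 difference ± SE, n = 3 arrays a group, limma adjusted p = 7.24e-09), a 2.86-fold difference. It was 2.08 ± 0.077 higher in Hkh-2 than with vehicle (limma adjusted p = 3.71e-10), a 4.21-fold difference. The second CLDN4 probe set, 1569421_at, lay between 5.39 and 5.82 on every array and was not tested. Its Hke3 values of 5.41, 5.39 and 5.43 were the lowest of all arrays, below the 5.68, 5.59 and 5.59 with vehicle. The Hkh-2 values of this probe set, 5.79, 5.76 and 5.51, overlapped those with vehicle. With the mean of both probe sets taken for the gene, the CLDN4 difference was 0.65 in Hke3 (limma adjusted p = 4.84e-06) and 1.07 in Hkh-2 (limma adjusted p = 5.13e-08).

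CLDN3 encodes claudin-3, which also seals the paracellular route. Probe set 203954_x_at had values of 8.47, 8.39 and 8.84 in Hke3, 9.43, 9.68 and 9.32 in Hkh-2, 8.08, 8.44 and 8.14 with doxycycline, and 7.94, 8.32 and 8.17 with vehicle. Hkh-2 stood clear of the other groups, while the lowest Hke3 array lay just above the highest vehicle array. CLDN3 was 0.42 ± 0.143 higher in Hke3 than with vehicle (SE, n = 3, limma adjusted p = 0.0275, 1.34-fold) and 1.34 ± 0.143 higher in Hkh-2 (limma adjusted p = 9.81e-06, 2.52-fold).

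The second CLDN3 probe set, 203953_s_at, read 7.71, 7.59 and 8.24 in Hke3, 8.78, 8.79 and 8.66 in Hkh-2, 6.55, 6.96 and 6.95 with doxycycline, and 6.90, 7.29 and 7.03 with vehicle. As for the first, Hkh-2 was highest and Hke3 next. It was higher by 0.77 in Hke3 (limma adjusted p = 0.00193 over probe sets) and by 1.67 in Hkh-2. The call of the first probe set in Hke3 ended in 4 of 21 alternative settings of the fit over probe sets. These were the fits without vehicle replicate 1 (0.32, adjusted p = 0.12), without vehicle replicate 3 (0.44, adjusted p = 0.0527), without Hke3 replicate 3 (0.29, adjusted p = 0.1001) and with the compared groups alone (adjusted p = 0.0589). The call of the second held in all 21 settings, at differences of 0.58 to 0.90. The endings _x_at and _s_at mark probe sets whose probes may match related transcripts.

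OCLN encodes occludin. Probe set 227492_at read 11.36, 11.39 and 11.32 in Hke3, 11.26, 11.37 and 11.28 in Hkh-2, 10.31, 10.19 and 10.16 with doxycycline, and 10.37, 10.12 and 10.20 with vehicle. Hke3 and Hkh-2 overlapped each other and lay about 1 log2 unit above the HCT116 arrays. The difference from vehicle was 1.13 ± 0.078 in Hke3 (SE, n = 3, limma adjusted p = 1.35e-07, 2.19-fold) and 1.07 ± 0.078 in Hkh-2 (limma adjusted p = 2.40e-07, 2.10-fold).

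All 4 OCLN probe sets were higher in each line than with vehicle, by 1.09 to 1.48 in Hke3 and by 0.80 to 1.48 in Hkh-2. Probe set 209925_at read 8.86, 8.88 and 8.86 in Hke3, 8.94, 8.77 and 8.88 in Hkh-2, 7.04, 7.32 and 7.58 with doxycycline, and 7.31, 7.34 and 7.49 with vehicle, so that the lines again overlapped. Probe set 235937_at separated the lines, with 7.73, 8.06 and 7.41 in Hke3, 6.99, 7.05 and 7.26 in Hkh-2, 6.14, 6.40 and 6.32 with doxycycline, and 6.39, 6.03 and 6.40 with vehicle. Its Hke3 minus Hkh-2 difference was 0.63 (limma adjusted p = 0.00638 over probe sets). Probe set 231022_at read 9.01, 8.79 and 8.75 in Hke3, 8.66, 8.47 and 8.54 in Hkh-2, 7.92, 7.84 and 7.77 with doxycycline, and 7.94, 7.54 and 7.80 with vehicle. Both lines lay above HCT116, and the difference between the lines was 0.29 for this probe set (limma adjusted p = 0.0491). For 227492_at and 209925_at that difference was 0.06 and 0.00 and did not pass the test.

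TJP1 encodes ZO-1, the scaffold under the strands. Probe set 202011_at read 11.92, 11.96 and 11.89 in Hke3, 12.13, 12.05 and 12.16 in Hkh-2, 11.21, 11.28 and 11.36 with doxycycline, and 11.37, 11.18 and 11.41 with vehicle. Every array of the recombined lines lay above every HCT116 array. TJP1 was 0.60 ± 0.078 higher in Hke3 than with vehicle (SE, n = 3, limma adjusted p = 3.87e-05, 1.52-fold) and 0.79 ± 0.078 higher in Hkh-2 (limma adjusted p = 4.26e-06, 1.73-fold). The second TJP1 probe set, 214168_s_at, read 9.03, 9.12 and 8.99 in Hke3, 9.09, 9.04 and 9.11 in Hkh-2, 8.18, 8.35 and 8.48 with doxycycline, and 8.44, 8.25 and 8.42 with vehicle. It was higher by 0.68 in Hke3 and by 0.71 in Hkh-2 than with vehicle, and the lines overlapped.

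**Figure D2:**
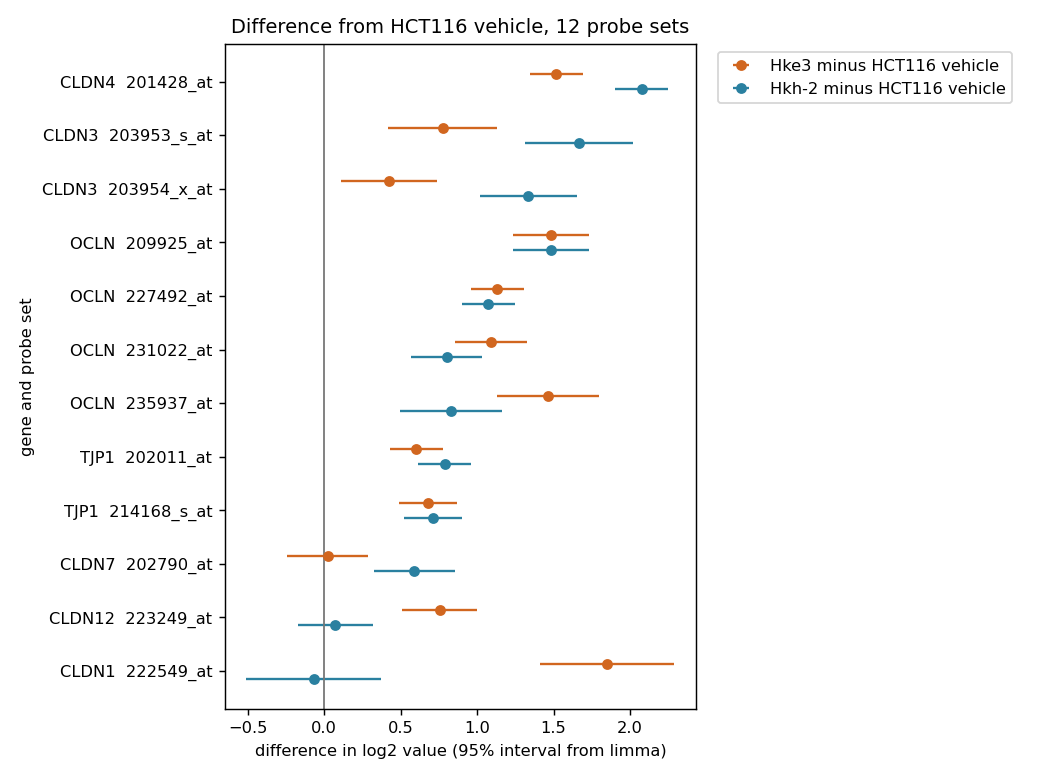
Log2 difference from HCT116 vehicle, with its 95% interval from limma, of the 12 probe sets tested, for Hke3 (orange) and Hkh-2 (blue). All 4 OCLN, both TJP1, both CLDN3 probe sets and the CLDN4 probe set lie right of 0 in both lines; the CLDN1 points are fitted values against a group near background.

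CLDN7 encodes claudin-7, which lies along the lateral membrane as well as at the junction. Its values were 10.43, 10.39 and 10.87 in Hke3, 11.13, 11.19 and 11.07 in Hkh-2, 10.64, 10.57 and 10.41 with doxycycline, and 10.56, 10.67 and 10.40 with vehicle. Only the Hkh-2 arrays stood apart, and Hke3 overlapped both HCT116 groups. CLDN7 was 0.59 ± 0.120 higher in Hkh-2 than with vehicle (SE, n = 3, limma adjusted p = 0.00193, 1.5-fold). In Hke3 the difference was 0.02 with a 95% interval from -0.237 to 0.285 (limma adjusted p = 0.884).

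CLDN12 encodes claudin-12, a claudin linked to paracellular calcium transport in the intestine. It read 10.21, 10.17 and 9.80 in Hke3, 9.50, 9.28 and 9.35 in Hkh-2, 9.38, 9.35 and 9.42 with doxycycline, and 9.38, 9.13 and 9.41 with vehicle. Here Hke3 was the high group and Hkh-2 overlapped HCT116, the reverse of CLDN7. CLDN12 was 0.76 ± 0.112 higher in Hke3 than with vehicle (SE, n = 3, limma adjusted p = 0.000126, 1.69-fold). In Hkh-2 the difference was 0.07 with a 95% interval from -0.170 to 0.315 (limma adjusted p = 0.654).

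CLDN1 encodes claudin-1, a sealing claudin without which the skin barrier fails in mice. Probe set 222549_at read 6.49, 6.93 and 5.81 in Hke3, and was near background in the other groups, at 4.36, 4.55 and 4.57 in Hkh-2, 4.64, 4.53 and 4.51 with doxycycline, and 4.70, 4.57 and 4.42 with vehicle. Every Hke3 array lay above all 9 others, and the Hke3 arrays spread widely, with an SD of 0.56. The fitted CLDN1 difference of Hke3 from vehicle was 1.85 (limma adjusted p = 8.89e-06), part of it below background. Measured from 6, CLDN1 was at least 0.41 higher, at least a 1.33-fold difference, and this bound itself was not tested. That bound was 0.71 without Hke3 replicate 3 and 0.15 without Hke3 replicate 2. The second CLDN1 probe set, 218182_s_at, was below 6 on every array and was not tested, though its Hke3 values of 3.93, 4.16 and 4.10 were the highest of the 12 arrays.

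CLDN2 encodes the cation channel claudin-2. It read between 5.23 and 5.54 on all 12 arrays, near background in every group, and was not tested.

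**Figure D3:**
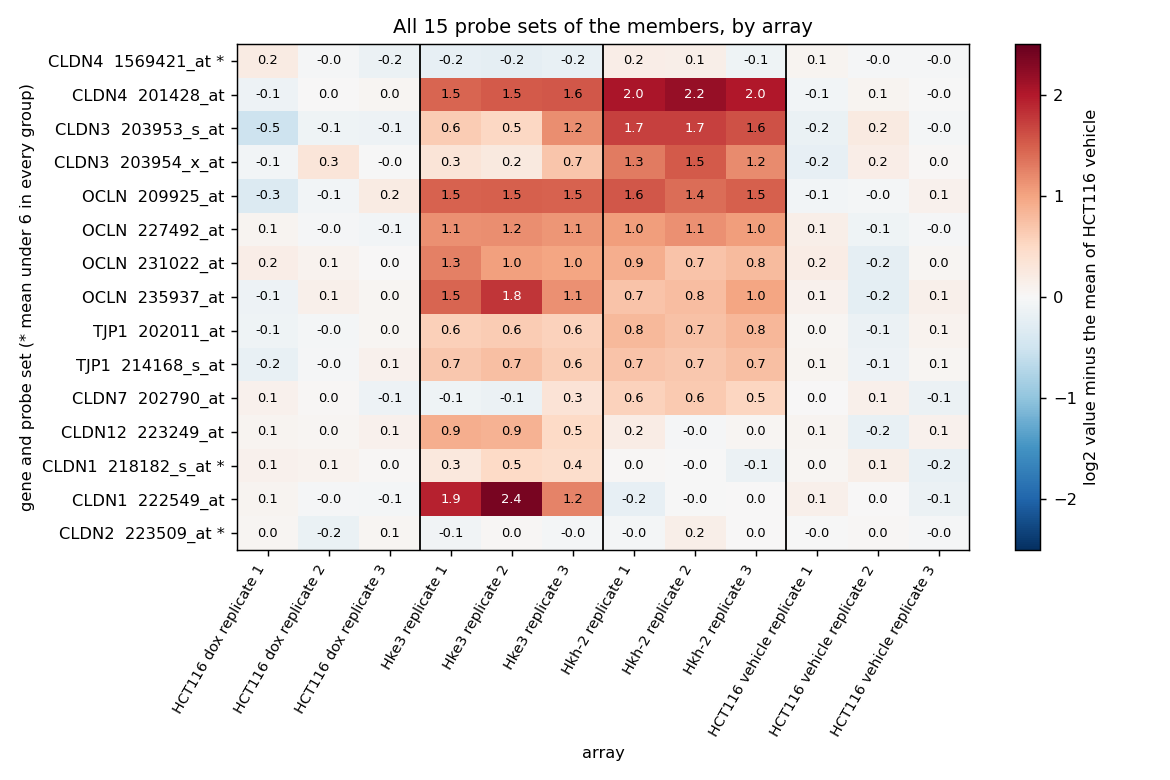
Log2 value minus the mean of HCT116 vehicle for each of the 15 probe sets (rows) and 12 arrays (columns; dox stands for doxycycline), with the number printed in each cell; rows with an asterisk have a mean under 6 in every group. The CLDN4, CLDN3, OCLN and TJP1 rows tested are positive on all 6 arrays of Hke3 and Hkh-2, CLDN7 is positive throughout in Hkh-2, and CLDN12 and CLDN1 stand out in Hke3.

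The lines were then compared with each other. Of the 7 genes, 2 were higher in Hke3 than in Hkh-2, against 16.3% of all genes, and 3 were lower, against 23.5%. CLDN3 was lower in Hke3 by 0.91 on the log2 scale (Hke3 minus Hkh-2, -0.91 ± 0.143, SE, n = 3, limma adjusted p = 0.000276), and its second probe set gave -0.89. CLDN4 (-0.56 ± 0.077, limma adjusted p = 0.000104) and CLDN7 (-0.56 ± 0.120, limma adjusted p = 0.00252) were also lower in Hke3. CLDN12 was higher in Hke3 by 0.68 ± 0.112 (limma adjusted p = 0.000385). CLDN1 was higher in Hke3 by a fitted 1.92 (limma adjusted p = 9.59e-06), and by at least 0.41 when measured from 6. The pair CLDN3 and CLDN4 and also CLDN7 were therefore highest in Hkh-2, and CLDN12 in Hke3. CLDN1 passed the filter through Hke3 alone, where it was high, so the direction of its call was set by the filter.

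For OCLN the Hke3 minus Hkh-2 difference was 0.06, with a 95% interval from -0.112 to 0.227 (limma adjusted p = 0.594). For TJP1 it was -0.19, with a 95% interval from -0.354 to -0.0183 (limma adjusted p = 0.0737), although the arrays of the lines did not overlap. The TJP1 call depended on the fit, as it passed the test with an intensity trend and robust prior (adjusted p = 0.0401), without vehicle replicate 2 (adjusted p = 0.0365) and without that array and Hke3 replicate 3 (adjusted p = 0.0431).

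Doxycycline itself was compared with vehicle in the control cells, since the drug served as an inducer in the study. None of the 7 genes passed the test, and 0% of all genes did. The differences of the 7 genes ran from -0.04 to 0.08, and their 95% intervals lay between -0.437 and 0.435 (limma, smallest adjusted p = 0.999897). At an unadjusted limma p under 0.05, 127 of all 12852 genes passed and 0 of the 7 did, a share of all genes so small that 0 of 7 says little.

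Other genes of the tight junction were described by 6 lists, which held 70 genes, of which 61 were measured and 49 kept. Some of the 49 passed the filter only through the group where they were high, so the counts over them are descriptions. Of the 49, 17 were higher in Hke3 than with vehicle (34.7%, against 23.2% of all genes) and 8 were lower (16.3%, against 24.6%), with a median of 0.07, against -0.04 over all genes. In Hkh-2, 19 were higher (38.8%, against 21.7%) and 6 were lower (12.2%, against 14.3%), with a median of 0.06, against 0.02. Of the 42 genes with a mean of at least 6 both in Hke3 and with vehicle, 14 were higher and 8 lower, and of the 44 in Hkh-2 and vehicle, 17 were higher and 4 lower. The shares of all genes given here use a mean of at least 6 in any group. They are thus no match for counts of genes at 6 in both groups, here or below, which are descriptions only. With doxycycline 0 were called in either direction. Between the lines, 11 were higher in Hke3 (22.4%, against 16.3% of all genes) and 13 lower (26.5%, against 23.5%).

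Of 9 other claudin genes kept, 1 was higher and 3 were lower in Hke3, and 0 were higher and 2 lower in Hkh-2. The 33.3% lower in Hke3 stand against 24.6% of all genes, and the 22.2% lower in Hkh-2 against 14.3%, so counts this small say little about these claudins as a group. CLDND1, a claudin-domain gene, read 11.66, 11.65 and 11.30 in Hke3, 9.50, 9.51 and 9.61 in Hkh-2, and 11.27, 11.21 and 11.20 with vehicle. It thus went opposite ways, 0.31 higher in Hke3 (limma adjusted p = 0.0136) and 1.69 lower in Hkh-2 (log2 difference -1.69, limma adjusted p = 1.39e-08). CLDN17 (-0.27, means of 6.11 in Hke3 and 6.38 with vehicle) and CLDN11 (-0.25, 6.53 and 6.78) were lower in Hke3, at levels near the cut of 6. Both calls ended with cyclic loess scaling (adjusted p = 0.0986 and 0.0722). The CLDN17 call also ended with each array's median subtracted (adjusted p = 0.0578), with the replicate number as a block (adjusted p = 0.0536) and without both arrays that lay apart (adjusted p = 0.0539). CLDN18 was near background in Hkh-2, at 5.78 against 6.01 with vehicle. It passed the filter through vehicle alone, so the direction of its call was set by the filter. That call ended with each array's median subtracted (adjusted p = 0.0743) and with cyclic loess scaling (adjusted p = 0.0854). Of the 8 other claudins with a mean of at least 6 both in Hkh-2 and with vehicle, 0 were higher and 1 was lower.

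Tricellular and MARVEL proteins seal the corners where 3 cells meet or are built like occludin. Of their 5 genes, 2 were higher in Hke3 and 3 in Hkh-2, and 0 were lower. That is 40% and 60% higher, against 23.2% and 21.7% of all genes, and 0% lower, against 24.6% and 14.3%. MARVELD3, a relative of occludin, was 0.77 higher in Hkh-2 (limma adjusted p = 8.76e-05), with 8.75, 8.64 and 8.78 there and 7.92, 7.99 and 7.96 with vehicle. ILDR2 and ILDR1, tricellular junction genes, were near background with vehicle (means 4.59 and 5.50). Both passed the filter only through the recombined lines, where they were high, so that the direction of their calls was set by the filter. Among the other 3 genes, 0 were higher in Hke3 and 1 in Hkh-2. ILDR2, at 6.64, 6.11 and 5.49 in Hke3 and 5.78, 6.24 and 6.31 in Hkh-2, was at least 0.08 higher in Hke3 and at least 0.11 higher in Hkh-2, and ILDR1 at least 0.05 higher in Hke3.

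Of 4 kept JAM and CTX adhesion family genes, 2 were higher and 0 lower in Hke3, and 1 higher and 1 lower in Hkh-2. In Hke3 that is 50% higher and 0% lower, against 23.2% and 24.6% of all genes. In Hkh-2 it is 25% each way, against 21.7% higher and 14.3% lower. CLMP passed the filter through Hke3 alone, where it was high. It was at least 0.58 higher in Hke3, at 6.66, 6.49 and 6.60 against 5.88, 6.01 and 5.85 with vehicle, and it was the lower gene in Hkh-2, where both means (5.32, and 5.91 with vehicle) were near background. CXADR, the coxsackie and adenovirus receptor gene, was 0.36 higher in Hke3 (limma adjusted p = 0.0145) and 0.29 higher in Hkh-2 (limma adjusted p = 0.0495), the second call ending with cyclic loess scaling (adjusted p = 0.0722), with the replicate number as a block (adjusted p = 0.0517) and without both arrays that lay apart (0.16, adjusted p = 0.0608).

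Of 13 kept genes of the cytoplasmic scaffold and plaque, 5 were higher and 2 lower in Hke3, and 6 higher and 2 lower in Hkh-2. In Hke3 that is 38.5% higher and 15.4% lower, against 23.2% and 24.6% of all genes. In Hkh-2 it is 46.2% higher and 15.4% lower, against 21.7% and 14.3%. CGN, which encodes the plaque protein cingulin, read 8.01, 7.93 and 8.06 in Hke3, 8.69, 8.80 and 8.40 in Hkh-2, and 7.00, 7.13 and 6.86 with vehicle. Like CLDN4 it was higher in each line than with vehicle, by 1.01 in Hke3 (limma adjusted p = 4.55e-06) and 1.64 in Hkh-2 (limma adjusted p = 5.31e-08). AMOTL2, an angiomotin family gene, was 1.65 higher in Hke3 and 1.02 higher in Hkh-2. SYMPK, whose product symplekin acts in mRNA 3′ end processing and also lies at junctions, was lower by 1.21 in Hke3 (log2 difference -1.21) and by 0.69 in Hkh-2 (-0.69). TJP3, which encodes ZO-3, was lower in Hke3 (-0.51), with -0.20 in Hkh-2, which did not pass the test. CGNL1, a relative of cingulin, was lower in Hkh-2 (-0.49), with -0.01 in Hke3, which did not pass the test.

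The polarity complexes place the junction at the apical border. Of 13 kept genes of these complexes, 5 were higher and 3 lower in Hke3, and 5 higher and 1 lower in Hkh-2. In Hke3 that is 38.5% higher and 23.1% lower, against 23.2% and 24.6% of all genes. In Hkh-2 it is 38.5% higher and 7.69% lower, against 21.7% and 14.3%. PALS1 and CRB3, partners in the crumbs complex, were higher in both lines, PALS1 by 0.75 in Hke3 and 0.52 in Hkh-2, and CRB3 by 0.61 in Hke3 and 0.29 in Hkh-2. PARD6B, of the PAR complex, was also higher in both, by 0.31 in Hke3 and 0.95 in Hkh-2. LLGL2, of the scribble group, was 0.69 higher in Hkh-2, and its Hke3 difference of -0.20 did not pass the test. SCRIB, which encodes the basolateral scaffold scribble, was lower in Hke3 (-0.81, limma adjusted p = 4.18e-06), at 10.15, 10.17 and 10.28 against 10.91 to 11.11 with vehicle. In Hkh-2 its difference was -0.25 (limma adjusted p = 0.0309), a call that ended with each array's median subtracted (adjusted p = 0.0581) and without both arrays that lay apart (adjusted p = 0.0503). PARD6A was lower in Hke3 (-0.31).

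Of 5 kept genes for claudin stability and membrane proteases, 2 were higher in Hke3 and 4 in Hkh-2, and 0 were lower. That is 40% and 80% higher, against 23.2% and 21.7% of all genes, and 0% lower, against 24.6% and 14.3%. The medians were 0.15 in Hke3 and 0.93 in Hkh-2. PRSS8, which encodes the membrane-anchored protease prostasin, read 7.81, 7.93 and 8.35 in Hke3, 9.44, 9.41 and 9.24 in Hkh-2, and 7.27, 7.51 and 7.05 with vehicle. It was 0.75 higher in Hke3 (limma adjusted p = 0.000707) and 2.09 higher in Hkh-2 (limma adjusted p = 1.04e-07). ST14, which encodes the protease matriptase, was 1.05 higher in Hkh-2, and its Hke3 difference of 0.07 did not pass the test. SPINT2, an inhibitor of both proteases, was 0.39 higher in each line.

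**Figure D4:**
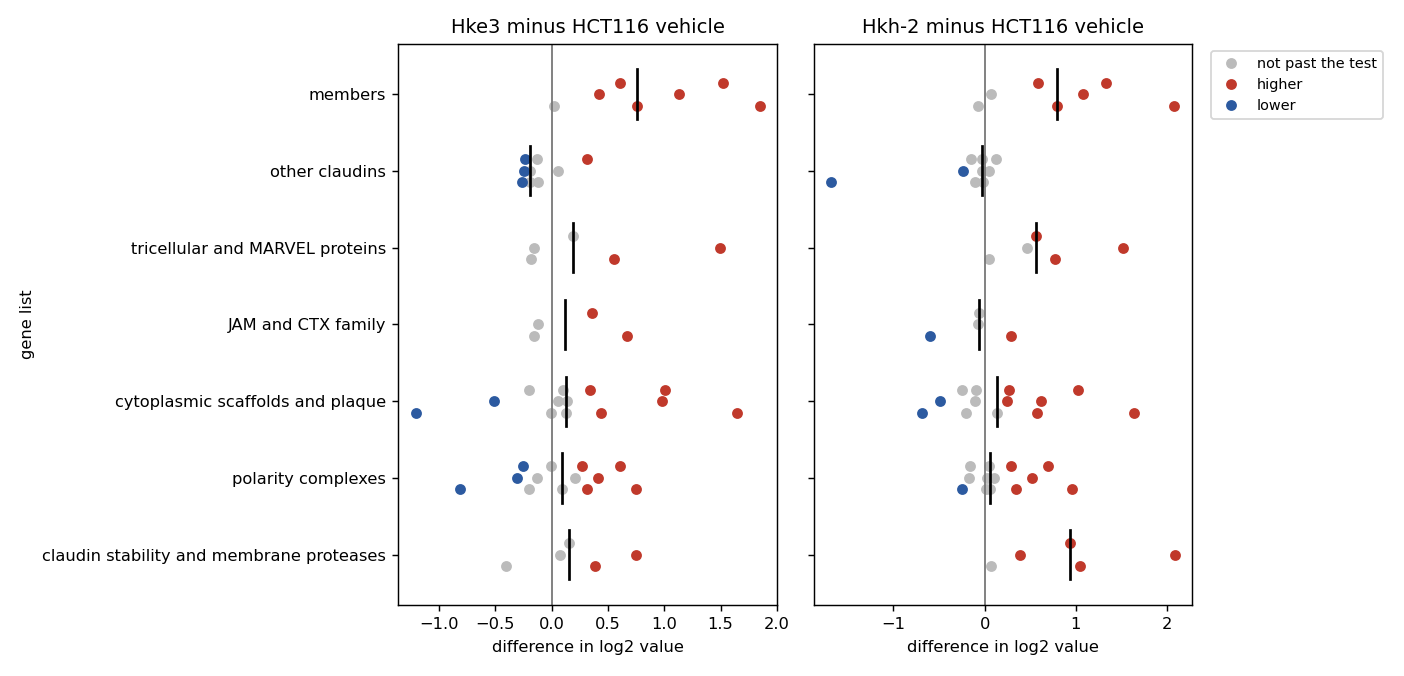
Log2 difference from HCT116 vehicle (horizontal axis) of each gene kept, by list, in Hke3 (left) and Hkh-2 (right); red and blue points passed the limma test as higher or lower, grey ones did not, and black bars mark medians. The top row holds the 7 claudin, occludin and TJP1 genes, with medians of 0.76 and 0.79, while the 9 other claudins have medians of -0.19 and -0.03. The genes and lists were chosen with earlier results of these data known. Some of the other claudins lay near the cut of 6, with vehicle means of 6.06 for CLDN9, 6.38 for CLDN17 and 6.01 for CLDN18. Genes near background are drawn at their fitted values.

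CLDN4 spanned the widest range of group means, 2.10 on the log2 scale. Over the 12 arrays the genes whose values followed it most closely were MB21D2 (Pearson r = 0.996), PSME1 (r = 0.995) and CD24 (r = 0.994), a description across arrays that share 4 groups. CD24, a surface glycoprotein gene, averaged 11.2 in Hke3, 11.9 in Hkh-2 and 8.96 with vehicle.

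Hke3 replicate 3, 1 of the arrays apart from its group, was the highest Hke3 array for CLDN3 and CLDN7 and the lowest for CLDN12 and CLDN1. Without it and vehicle replicate 2, 6 of the 7 genes were higher in Hke3 and 5 in Hkh-2, against 3167 and 3652 of all 12852 genes. The Hke3 differences were then 1.53 for CLDN4, 1.10 for OCLN, 0.80 for CLDN12, 0.55 for TJP1 and 0.37 for CLDN3 (limma adjusted p = 0.038).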

How the data were processed

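RNA of Hke3, Hkh-2 and HCT116 control cells with 25 ng/ml doxycycline or vehicle was measured with 3 arrays a group. The authors deposited log2 values, 1 for each probe set on each array, from RMA, a procedure of background correction, normalization between arrays and summary over probes. Its version, its chip definition and which arrays were normalized together were not given in the sources used here. The gene at the recombined allele is not reported here.

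Gene names came from the annotation of the platform, in which 41097 probe sets name 1 gene, 1801 several and 11777 none, and 41043 of the first were matched to RefSeq genes of GRCh38.p14. Only probe sets naming 1 gene were used. Each of 19775 genes was represented by its probe set of highest mean, and kept where a group mean was at least 6. limma 3.58.1 in R 4.3.3 was fitted with 4 group means to the 12 arrays together, with Benjamini-Hochberg adjustment over 12852 genes. The same fit was run on the 23516 probe sets kept. No depth applies to arrays, and their number limits the precision.

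The members and gene lists were chosen with earlier results of these data known. All 9 members were named. Of each list, the rule took up to 2 genes with the largest positive and up to 2 with the largest negative difference from vehicle among those past the test whose arrays do not overlap, and then the 3 genes most correlated over the arrays with the member of widest range. Replicate numbers were not stated to mark pairs or batches. The deviations of same-numbered arrays from their group means correlated at r = 0.228, 0.212 and 0.453 for doxycycline and vehicle. For Hkh-2 and vehicle they correlated at r = -0.046, 0.422 and 0.337, and for Hke3 and vehicle at r = 0.355, -0.578 and -0.580. The procedure was tested on simulated data. Alternatives were other probe set summaries, filters, scalings, fits and size thresholds, the replicate block, pooled controls and leaving out arrays. Promoter sequences came from RefSeq, where 8 of the 9 members were listed.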

Additional observations from a re-analysis of the deposited data

Results flagged for a closer look

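For 5 claudins the difference of Hke3 from HCT116 vehicle was not that of Hkh-2, by limma's test of Hke3 minus Hkh-2 over all genes (n = 3 arrays a group). CLDN7 (-0.56, adjusted p = 0.00252), CLDN3 (-0.91, adjusted p = 0.000276) and CLDN4 (-0.56, adjusted p = 0.000104) were lower in Hke3. CLDN12 was higher in Hke3 (0.68, adjusted p = 0.000385). CLDN1 was higher in Hke3 by a fitted 1.92 (adjusted p = 9.59e-06), of which at least 0.41 lies above background. It passed the filter through Hke3 alone, so the direction of its call was set by the filter. Groups of 3 arrays were too small for a check of single arrays as outliers.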

How the results depend on the processing

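Of the single-gene values under the alternatives, 611 kept their side of the threshold, 4 passed it and 3 lost it. Genes that a setting did not test are not in this tally, such as CLDN1 with the mean of its probe sets. All 356 values of differences that were called at first kept their sign, while 29 of those not called changed it. Settings that changed only the filter, the block, the spread estimate or arrays of groups not compared left the difference itself the same. Its sign could not change there. The 3 losses are of CLDN3 in Hke3, without vehicle replicate 1 (adjusted p = 0.111), without Hke3 replicate 3 (adjusted p = 0.0947) and with the compared groups alone (adjusted p = 0.0549) in the fit over genes, and the 4 gains are TJP1 in Hke3 minus Hkh-2 under the trend and robust prior, without vehicle replicate 2 and without both arrays that lay apart (adjusted p = 0.0431), and OCLN in the same comparison as the mean of all probe sets (0.25, adjusted p = 0.0243).

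With a size threshold of 1.5 added, the genes higher numbered 2 in Hke3 and 1 in Hkh-2, and between the lines 1 higher and 0 lower. The probe sets numbered 2, 2, 1 and 0. CLDN1 is counted here in Hke3 and is the gene between the lines. It passed 1.5 by its fitted values of 1.85 and 1.92 alone, since its bound measured from 6 was 0.41. Over all genes that left 249 higher and 67 lower in Hke3, 205 and 81 in Hkh-2, and 142 and 88 between the lines. With a minimum mean of 8, 1 gene and 2 probe sets were higher in Hke3 than in Hkh-2, since CLDN1 and OCLN probe set 235937_at were no longer tested. Of all 8332 genes in that setting, 1644 were higher. With the mean of all probe sets, 5 of 6 genes tested were higher in Hke3 than with vehicle, against 2480 of all 11393. CLDN1 was not tested there, as its probe sets averaged 6.41 and 4.06 in Hke3. Leaving out each array in turn gave 5 to 6 genes and 10 to 11 probe sets higher in Hke3, 5 and 10 in Hkh-2, and between the lines 2 genes higher and 3 to 4 lower, with 3 to 4 and 4 to 5 probe sets. Over all genes these fits gave 2607 to 3217 higher in Hke3 and 2219 to 3242 higher in Hkh-2. Between the lines they gave 1690 to 2530 higher and 2159 to 3871 lower. Without probe sets ending in _x_at or _s_at, CLDN3 had no value.

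With the replicate number as a block, 6 of the 7 genes were higher in Hke3 and 5 in Hkh-2, and 0 differed with doxycycline. Over all 12852 genes, 2893 were higher in Hke3, 2686 in Hkh-2 and 0 with doxycycline. The block changed no call of the 7 genes, though CLDN17 in Hke3 (adjusted p = 0.0536) and CXADR in Hkh-2 (adjusted p = 0.0517) lost theirs. Of 12 arrays, 6 correlated best with an array of their own number. The array has few probe sets for most of these genes, and values near 6 leave only a lower bound for CLDN1.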
